A study of Rattus norvegicus with 6 samples.

Results

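Hexokinases add a phosphate to glucose as it enters the cell, which traps the sugar and feeds glycolysis, glycogen and the pentose phosphate route. The common isoforms have a high affinity for glucose and are held back by their product, glucose-6-phosphate. Hk1 is the widespread isoform, Hk2 is the insulin- and hypoxia-responsive isoform of muscle and fat, and Hk3 is known mainly from blood and immune cells. Gckr encodes a regulatory protein of sugar phosphorylation known from liver. In mature beta cells the genes of the high-affinity isoforms are usually described as repressed, so that glucose sensing follows a low-affinity enzyme.

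The 4 genes Hk1, Hk2, Hk3 and Gckr were looked for among the probes of a one-colour Agilent array by the RefSeq transcript each probe names. Of the 13903 genes with a probe, Hk2 and Hk3 were members, with 1 probe each, printed as 1 spot per array. Hk1 and Gckr were not analysed here, nor were other family members. The RNA came from pancreatic islets, the clusters of hormone-secreting cells of the pancreas, isolated by collagenase either from single adult male rats or from pooled animals of 10 days (P10). There were 3 arrays per stage, each with Cy3-labelled RNA of 1 rat or 1 pool. Neither stage carried a treatment or an altered gene in the labels, which give no strain, no adult age and no sex of the P10 rats. The comparison asks how expression differed between immature and adult islets.

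Between 17829 and 18731 of 24684 probes per array were well above background, and 0 spots were saturated. Adult arrays 2 and 3 differed from each other by no more than the noise between spots, with a variance ratio of 1.03, and so did P10 arrays 1 and 2, with a ratio of 1.00. Each of these pairs was counted as 1 sample, which left 2 replicates per stage. Adult array 1 shared its recorded scan date with the P10 arrays, and adult arrays 2 and 3 shared another. A slide below means the arrays of the same scan date, and slide identity itself was not read. A level below is log2 of the processed signal minus the 75th percentile of its array, and a change is adult minus P10. A gene was called where limma's adjusted p was under 0.05. Over all 18362 tested probes, 9607 were called, or 52.3%, with 3909 (21.3%) higher and 5698 (31%) lower in adults. This split was 5219 higher and 5278 lower with quantile normalization, and 10754 and 2047 with no scaling between arrays. The median change of all tested probes was -0.23, -0.02 and 0.97 under the 75th percentile, quantile normalization and no scaling, respectively.

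The adult islets held far more Hk3 signal than the P10 islets, while the Hk2 probe was close to background at both stages. Hk3 was 31.0-fold higher in adults (95% confidence interval 12.8 to 74.8, n = 2 per stage), the 16th largest rise of 11410 named genes tested. Hk2 changed by -0.45 on the log2 scale (SE 0.38, n = 2 per stage), which did not pass the test. Of the 2 members tested, 1 was thus called, against 52.3% of all tested probes.

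The promoter windows of both members are shown as sequence only, and no link between their motifs and the signals was tested. Each is the 250 bases before the RefSeq start, read 5′ to 3′ on the gene's strand in the GRCr8 assembly, with capitals marking matches to the motifs below.
Hk3, chr17:9604781-9605030, plus strand: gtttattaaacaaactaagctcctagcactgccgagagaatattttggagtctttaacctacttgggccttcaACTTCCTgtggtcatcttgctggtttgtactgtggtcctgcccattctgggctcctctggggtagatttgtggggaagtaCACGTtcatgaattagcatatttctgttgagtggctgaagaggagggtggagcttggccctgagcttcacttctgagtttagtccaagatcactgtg
Hk2, chr4:116841276-116841525, minus strand: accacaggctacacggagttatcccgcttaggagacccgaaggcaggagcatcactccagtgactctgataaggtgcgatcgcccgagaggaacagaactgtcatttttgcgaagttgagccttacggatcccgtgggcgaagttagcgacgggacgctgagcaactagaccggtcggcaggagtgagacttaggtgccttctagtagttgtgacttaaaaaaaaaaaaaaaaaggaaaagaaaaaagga
The motif AGGAAGT, a core recognised by ETS-family factors such as the myeloid regulator PU.1 (Spi1), matched once in the Hk3 window, 177 bases before the start and on the reverse strand. The motif ACGTG, the core of hypoxia response elements, also matched once there on the reverse strand, 97 bases before the start. The Hk2 window held 0 matches of either motif on either strand. Among 33469 promoter windows of the same length, 7.08% held AGGAAGT and 16.6% held ACGTG, and the 2 motifs do not overlap in the Hk3 window. The Hk3 window lies within the annotated span of the gene, for which other transcript models begin farther upstream. A match is a description of the letters, and binding was not measured.

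Hk3, the immune-cell isoform, gave processed signals of 10541, 18170 and 18835 intensity units on adult arrays 1, 2 and 3. The P10 signals were 197, 216 and 187. Every adult array was thus far above every P10 array, and adult array 1 was the lowest of the adults. The scanner's own error estimate put the signal at 9.90 to 10.0 times its error on all 6 arrays, and the probe was well above background on all 6. After scaling, the adult levels were 2.01, 3.15 and 3.27, and the P10 levels were -2.37, -2.17 and -2.42. The stage means were 2.61 ± 0.85 in adults and -2.34 ± 0.11 at P10 (SD, n = 2). The change of 4.95 (SE 0.45, 95% confidence interval 3.68 to 6.22) passed limma's test with an adjusted p of 0.00358. Relative to the median change of all tested probes it was 5.19. RNA of whole islets was measured, so more cells with Hk3 and more Hk3 RNA per cell cannot be told apart.

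**Figure D1:**
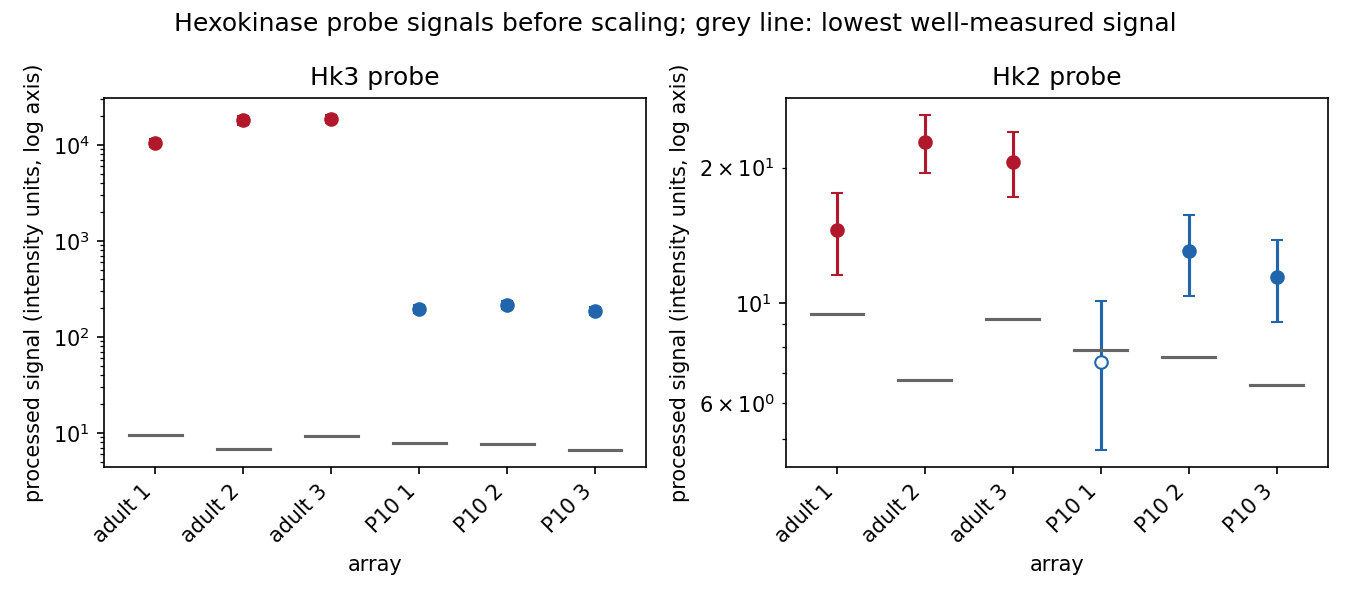
Processed signal of the Hk3 probe (left) and the Hk2 probe (right) on each array, before scaling, on log axes in intensity units. Red points are adult and blue points P10 arrays, bars are the scanner's signal error, the open point was not well above background, and grey lines mark each array's dimmest well-measured probe. Hk3 stands at 10541 to 18835 in adults and 187 to 216 at P10, whereas Hk2 lies between 7.42 and 22.8 on all arrays.

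The rank of the Hk3 probe among mRNA probes, which needs no scaling between arrays, showed the same gap. It stood at percentiles 86.0, 93.8 and 94.3 on the adult arrays and at 47.6, 49.0 and 47.5 on the P10 arrays. In the authors' deposited table of normalized log2 values, Hk3 was listed at 12.5, 13.7 and 13.8 in adults and at 8.09, 8.30 and 8.08 at P10. An Hk3 transcript in the middle of the mRNA range at P10 was thus among the brighter probes in adults.

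Adult array 1 was 1.21 below the mean of adult arrays 2 and 3 for Hk3 on the log2 scale. The median size of this gap over tested probes was 0.37, and 92.7% of probes had a smaller gap. The gap falls together with the slide, and its source was not tested. Within slide 1, where adult array 1 and the P10 arrays lie together, the Hk3 change was 4.35. Without adult array 1, which leaves the other slide as the only source of adult RNA, it was 5.56. Hk3 was called and higher in adults under all 19 alternatives tried, with changes from 4.33 to 6.15 and adjusted p from 1.47e-05 to 0.00901 (limma).

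Hk2, the insulin- and hypoxia-responsive isoform, gave 14.6, 22.8 and 20.6 intensity units on adult arrays 1, 2 and 3. Its P10 signals were 7.42, 13.0 and 11.4. Before scaling the adult signals were thus all above the P10 signals, by small amounts. The scanner's error was 3.03, 3.35 and 3.39 units on the adult arrays and 2.70, 2.67 and 2.36 units on the P10 arrays. The signal was well above background on 5 of 6 arrays and missed that mark on P10 array 1. Set against each array's dimmest well-measured probe, it was 1.54 to 3.38 times as bright in adults and 0.94 to 1.73 times at P10, so Hk2 was measured at the limit of the array.

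After scaling, the adult Hk2 levels were -7.49, -6.49 and -6.57, and the P10 levels were -7.10, -6.21 and -6.45. The stages overlapped on this scale, with adult array 1 the lowest of all 6 arrays. The means were -7.01 ± 0.68 in adults and -6.56 ± 0.14 at P10 (SD, n = 2). The change of -0.45 (95% confidence interval -1.51 to 0.60) had an adjusted p of 0.357 with limma. As a ratio of adult to P10 signal, this interval runs from 0.351 to 1.52. The sign of the Hk2 value turned with quantile normalization, to 0.60 (adjusted p = 0.0618, limma), which did not pass. With no scaling it was 0.74 (adjusted p = 0.0551, limma), but relative to the median of all tested probes Hk2 stood at -0.22 both there and in the main analysis, and at 0.63 with quantile normalization. Within slide 1 the change was -0.94 and was called (adjusted p = 0.00529, limma), with adult array 1 as the only adult sample, assumed to vary as the P10 arrays do. Without adult array 1 it was 0.03. The rank among mRNA probes was 18.7, 20.6 and 21.2 (percentiles) in adults and 13.6, 18.4 and 17.4 at P10, without overlap. Between quantile normalization, slide 1 and the main analysis, Hk2 had no settled direction.

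**Figure D2:**
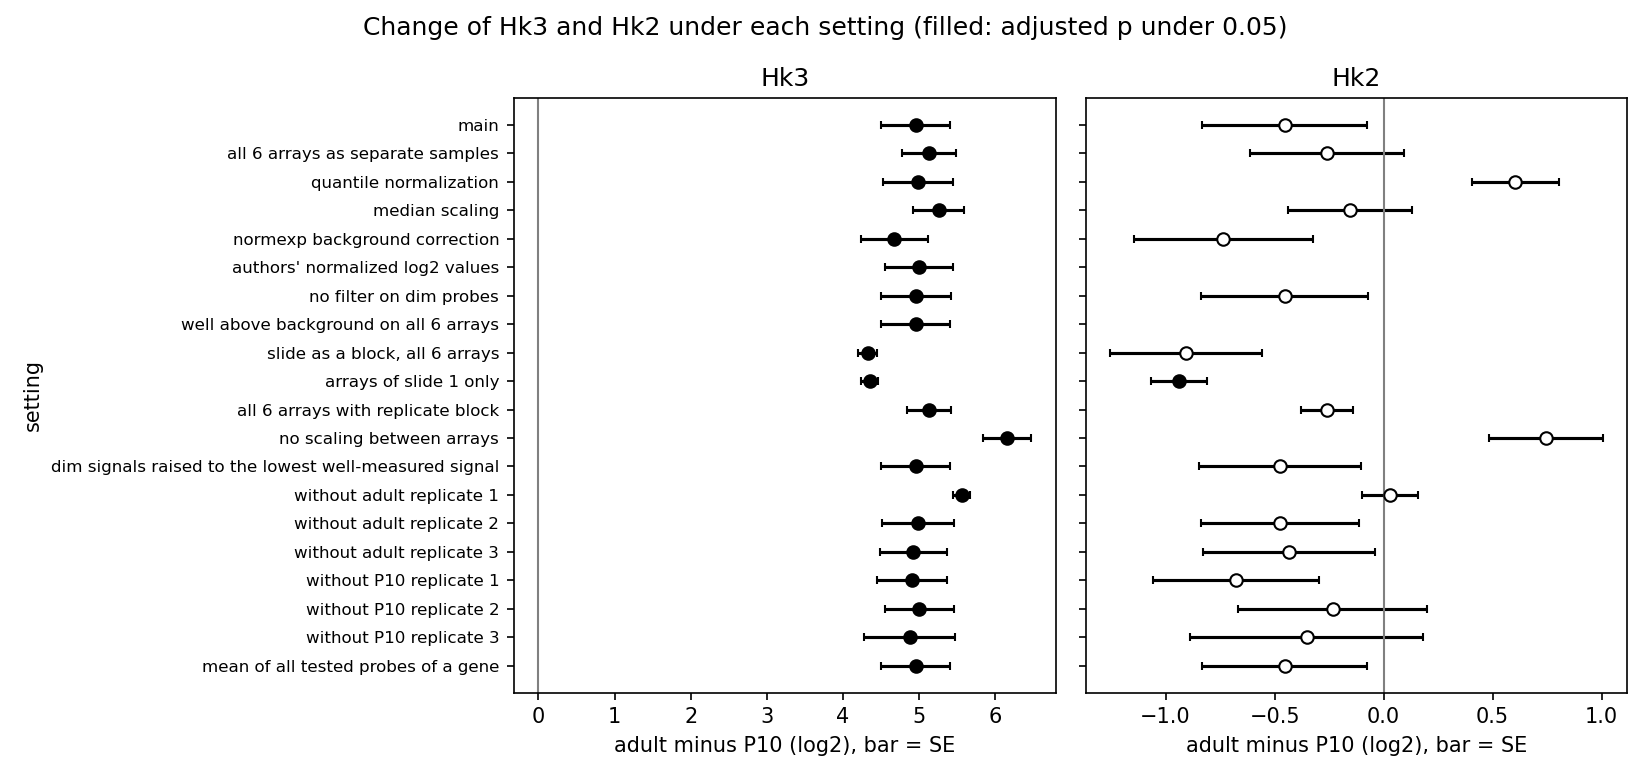
Change of Hk3 (left) and Hk2 (right), adult minus P10 on the log2 scale, in the main analysis (top) and under each alternative that gave a value. Bars are standard errors and filled points have an adjusted p under 0.05. All Hk3 points lie between 4.33 and 6.15, while the Hk2 points run from -0.94 to 0.74; the value with no scaling holds the shift of all probes by 0.97.

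The difference between both probes within an array is not moved by subtracting a constant from the array. The log2 signal of Hk3 exceeded that of Hk2 by 9.50, 9.64 and 9.84 on adult arrays 1, 2 and 3, and by 4.73, 4.05 and 4.03 on the P10 arrays. On P10 array 1 Hk2 was not well above background, and with its signal raised to the dimmest well-measured probe the difference there was 4.64. Levels of different probes are not comparable, but the shift of this difference between stages is. Over the 2 counted samples per stage, with that signal raised, the mean was 4.19 ± 0.22 at P10 and 9.62 ± 0.17 in adults (SD), a shift of 5.43. With quantile normalization the shift was 4.38. A two-sided exact permutation test gave p = 0.333 over the counted samples and p = 0.1 over all 6 arrays taken as separate, each the smallest its design allows. No array of one stage overlapped the other stage, but this design cannot pass the threshold.

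Genes that carry glucose into the cell or act on its phosphate were tallied from lists of the pathway. Among 11 tested glucose carriers, 4 were higher, 4 lower and 3 not called, with a median change of 0.08 beside -0.23 for all probes. Slc2a2, the main glucose carrier of rodent beta cells, was higher by 3.18, and levels were 4.20 to 4.60 in adults and 1.19 to 1.32 at P10. Slc2a6 was higher by 2.05, and Slc2a4, the insulin-responsive carrier of muscle and fat often paired with Hk2, by 1.94. Slc5a1, the sodium-glucose cotransporter of the intestine, changed by -3.28, Slc2a3, a high-affinity carrier, by -2.10, and Slc2a10 by -1.94. All 6 passed limma's test, with adjusted p from 0.00174 to 0.0149. Slc2a3 was dim in adults, with levels of -7.24 to -6.67, and its change was -1.31 with quantile normalization and -0.90, not called, with no scaling (adjusted p = 0.0563, limma).

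Of 12 tested genes that make or use glucose-6-phosphate, the product of the hexokinases, 2 were higher, 4 lower and 6 not called, with a median of 0.28. Slc37a4, which carries glucose-6-phosphate into the endoplasmic reticulum, was higher by 1.41, and Gys2, the liver-type glycogen synthase, by 1.28. G6pc1, the liver- and intestine-type phosphatase that undoes the hexokinase step, changed by -7.03 and Pgls of the pentose phosphate route by -1.14. H6pd, an enzyme of the same route in the endoplasmic reticulum, fell by 1.00. H6pd lost its call with quantile normalization (-0.34, adjusted p = 0.105, limma). Pgls and H6pd turned positive with no scaling, where the median of all probes was 0.97. The fall of G6pc1 was the largest in this group. Whether it and the rise of Hk3 arose in the same cells was not tested.

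Below the hexokinase step, 6 of 20 tested glycolytic genes were higher in adults, 4 lower and 10 not called, with a median of 0.12. Pfkfb2, which sets the level of a phosphofructokinase activator, was higher by 2.62. Eno2, the neuronal and endocrine enolase, was higher by 2.22, and Pkm, a pyruvate kinase gene, by 2.06. Pfkfb4 changed by -2.10, or -1.23 with quantile normalization, and was dim in adults, with levels of -7.81 to -6.62. Pfkfb1 changed by -1.25 and lost its call with quantile normalization (-0.50, adjusted p = 0.244, limma). With quantile normalization 8 of the 20 were higher and 3 lower. Glycolytic genes thus went both ways, and none of the 20 changed upward by more than Pfkfb2, which stayed below the 4.95 of Hk3.

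Hexokinases 1 and 2 can dock on the outer mitochondrial membrane through the channels encoded by Vdac genes. Of 10 tested genes tied to this docking, 0 were called higher and 2 lower, with a median of -0.08. The channel genes changed by -0.14 (Vdac1), -0.10 (Vdac2) and 0.13 (Vdac3), none called. The kinases Gsk3b and Akt1, which regulate docking, changed by -1.30 and -1.02, both called (adjusted p = 0.00847 and 0.0380, limma), and Akt1 turned to 0.18 with no scaling. With quantile normalization 3 of the 10 were higher and 2 lower.

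Among 15 tested genes that respond to hypoxia or insulin in the way known for Hk2, 6 were higher, 4 lower and 5 not called, with a median of 0.15. The carbonic anhydrase gene Car9 was higher by 1.84, Bnip3 by 1.61 and Ndrg1 by 1.58. Car9 was dim at P10, with levels of -6.49 to -5.77. Myc, a growth regulator that induces hexokinase genes in other tissues, changed by -2.77. Pdk1, which restrains pyruvate entry into mitochondria, changed by -2.09, and Ldha, the lactate dehydrogenase gene held low in beta cells, by -1.86. These genes thus went both ways. Of 12 tested genes usually silent in beta cells, a group in which Hk1 is counted, 2 were higher and 6 lower, with a median of -0.72. Of 14 tested liver-type sugar genes known with Gckr, 3 were higher and 10 lower, with a median of -1.44.

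Several of these calls rested on a setting. Without P10 replicate 3, which leaves 1 counted P10 sample and the spread of the adults alone, Slc37a4, Gys2, Pgls, H6pd, Pfkfb4, Pfkfb1, Gsk3b and Akt1 were no longer called. With normexp background correction the same was true of H6pd, Pfkfb4, Pfkfb1, Slc2a3, Akt1 and Car9. With no scaling it was true of Pgls, H6pd, Pfkfb1, Slc2a3, Gsk3b, Akt1 and Pdk1. G6pc1, Slc2a2, Slc2a4, Slc2a6, Slc2a10, Slc5a1, Pfkfb2, Eno2, Pkm, Bnip3, Ndrg1, Myc and Ldha were called, in 1 direction each, under each of the 18 alternatives that kept 1 probe per gene, as was Hk3.

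**Figure D3:**
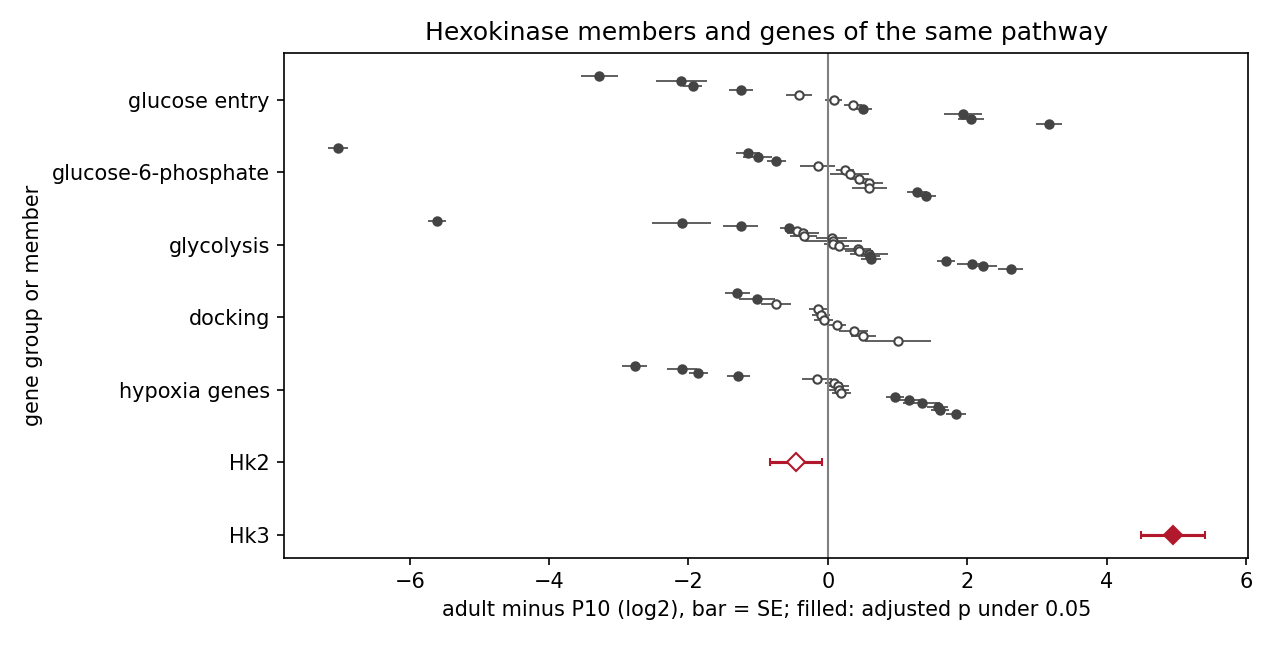
Change (adult minus P10, log2) of each tested gene in 5 groups around the hexokinase step, with Hk2 and Hk3 in red below. Bars are standard errors, and filled symbols have an adjusted p under 0.05. Genes of each group fall on both sides of 0, with G6pc1 at -7.03 and Slc2a2 at 3.18, while Hk3 stands at 4.95.

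Hk3 is known from myeloid cells, and markers of those cells were also higher in the adult islets. Of 16 tested myeloid and neutrophil markers, 13 were higher, 0 lower and 3 not called, with a median change of 1.37. The count was 15 with quantile normalization, with median scaling and with all 6 arrays as separate samples, and 6 with normexp background correction. It was also lower without P10 replicate 3, which leaves 1 counted P10 sample. Itgam, an integrin of macrophages and neutrophils, was at least 14.2-fold higher, since it was not well above background at P10, and was not called with normexp (adjusted p = 0.0920, limma). Lyz2, the lysozyme of myeloid cells, was higher by 2.84. The summed signal of the list, in units of each array's 75th percentile signal, was 14.2 to 16.7 in adults and 6.67 to 7.19 at P10, over the 15 genes measured on all 6 arrays, which leaves out Lyz2 and Tyrobp. At P10 Itgam and Ncf4 were not well above background. The defining genes not called were 3, with changes of 0.70 for Spi1 (adjusted p = 0.136), 0.75 for Cybb (0.0791) and 0.64 for Itgb2 (0.0664), all by limma. With quantile normalization Spi1 and Cybb were called (adjusted p = 0.0287 and 0.00968, limma) and Itgb2 was not (0.0541). Hk3 changed by more than each of the other 14 myeloid markers, which were well above background on some or all arrays of each stage. Its order against Itgam and Ncf4 is not known. The part of these markers in the Hk3 result was not tested.

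Of 11 tested lymphocyte markers, 8 were higher and 0 lower, with a median of 1.22. Cd79b, a part of the B cell receptor complex, was at least 13.5-fold higher. The summed level was 3.27 to 4.27 in adults and 1.63 to 1.73 at P10, where 3 of the markers, Cd79b among them, were not well above background. Hk3 changed by more than each of the other 8, which were well above background on some or all arrays of each stage. On adult array 1, Hk3 was lowest among adults. There the median gap to adult arrays 2 and 3 was -0.16 over the myeloid and -0.36 over the lymphocyte markers. Over all tested probes it was -0.19. Single myeloid markers went both ways. On adult arrays 1, 2 and 3, Spi1 stood at -3.06, -2.10 and -2.39, and Ptprc at 0.68, -0.10 and -0.08.

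The labelled tissue held its own markers, but not only those. The summed level of 11 beta cell markers was 300 to 409 in adults and 334 to 370 at P10. Of 11 tested markers of mature beta cells, the adults had 8 higher and 1 lower, and the median was 2.67. Pcsk1, a prohormone convertase, was higher by 3.57 and Glp1r by 3.19, while Ins1 changed by -0.93, a call that was lost with a value of 0.18 with quantile normalization. Of 10 alpha and delta cell markers, 5 were higher and 2 lower. Of 17 acinar markers, from the exocrine pancreas, 15 were lower (5 with quantile normalization, and 1 higher), with a median of -1.31. Their summed level was 899 to 1259 in adults and 2535 to 2685 at P10, above the beta cell sum on every array. The sums cover different probes and do not give shares of RNA. All 14 tested enterocyte markers were lower, with a median of -8.40. The summed enterocyte level over 14 genes was 12.6 to 14.7 in adults and 417 to 433 at P10, beside the falls of G6pc1 and Slc5a1, which the intestine also expresses and of which Slc5a1 is itself on that list. Its part in those falls was not tested. Of 15 tested genes of S phase and mitosis, 13 were lower and 0 higher, with a median of -1.73.

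**Figure D4:**
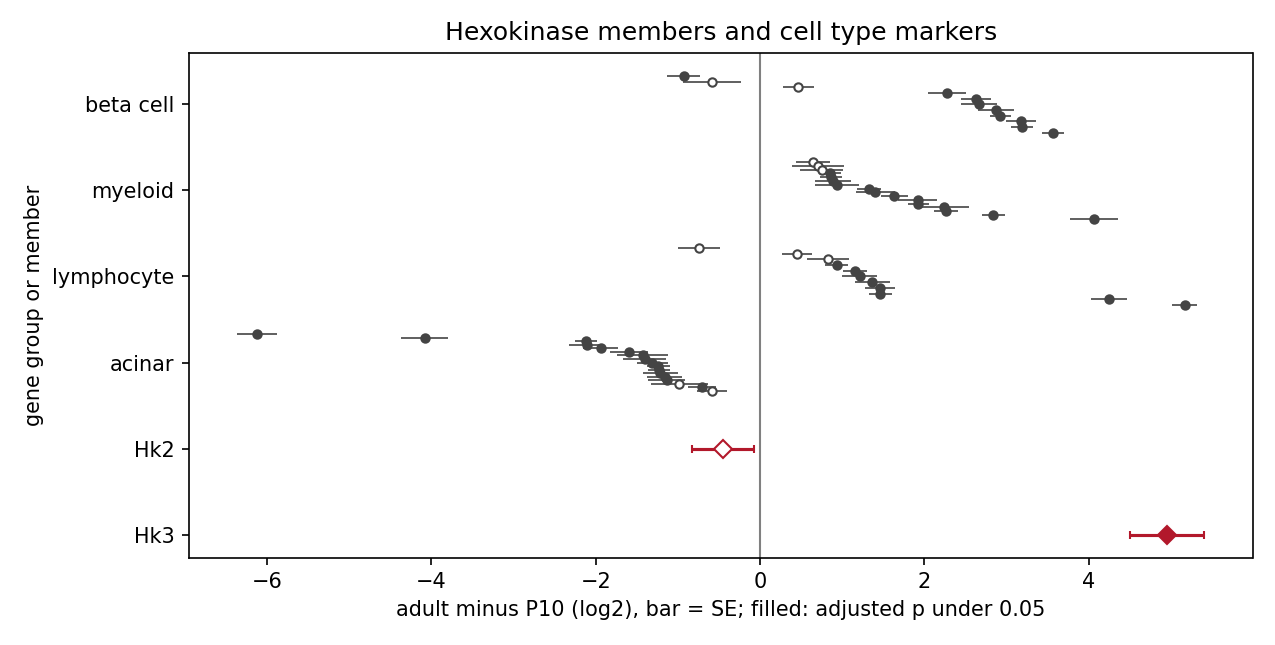
Change (adult minus P10, log2) of each tested marker of 4 cell types, with Hk2 and Hk3 in red below. Bars are standard errors, and filled symbols have an adjusted p under 0.05. Myeloid markers lie at 0.64 and above and Hk3 stands at 4.95; the fitted values of Itgam, Ncf4 and Cd79b, among others, rest on P10 signals not well above background.

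The genes whose pattern lay nearest to each member were found by Euclidean distance over the 6 arrays, after centring each probe, among 11183 genes. For Hk3 these were Asgr2, a subunit of the asialoglycoprotein receptor, at a distance of 0.40, the olfactory receptor gene Or2b11 at 0.43 and Gpr15, a receptor known from T cells, at 0.47. The median gene lay at 6.50. These 3 genes changed by 4.94, 4.74 and 5.24, and all shared the lower value of adult array 1. For Hk2 the nearest were Or7d11c at 0.28, the keratin gene Krt84 at 0.29 and Pigt at 0.37, against a median of 1.46. They changed by -0.59, -0.40 and -0.65, none called, and each, like Hk2, was lowest on adult array 1 and next lowest on P10 array 1. All distances share the same arrays and scaling, so like changes and a like low array follow from how these genes were chosen.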

How the data were processed

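The authors deposited 1-channel scanner files with spot intensity values. The submitters' processing notes name Agilent Feature Extraction 11.0.1.1. Processed intensity, per the file headers, was background-subtracted and detrended, with no scaling between arrays. The authors also deposited normalized log2 values, with the method not given in the sources used here. For 16038 probes, 98.8% of these lay within 0.05 of quantile-normalized log2 signals. Their column medians were 9.92 to 9.94 for mRNA probes.

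Outlier spots (1.77%) were left out, spots of a probe averaged, and each array's 75th percentile of log2 signal subtracted. RefSeq accessions were matched to a GRCr8 gene table, which named 14274 of 15321 mRNA accessions. Tested probes were well above background on each of the 3 arrays of a stage and measured in every replicate. Adult minus P10 was tested by limma 3.58.1 (lmFit and eBayes, in R 4.3.3), adjusting p-values over 18362 probes by Benjamini-Hochberg. The fit was also run on simulated data with few changed probes, to see that it returned their sign and size. That run does not measure how often calls here are false. Each gene entered with its brightest probe. Lower bounds of a fold raise dim signals to their array's dimmest well-measured probe. Normexp (offset 50) used median spot signals, as mean signals were not used here.

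The members, lists and settings were chosen with earlier results of these data known. Named were both members, the 3 called genes per pathway list and direction with the largest changes, up to 2 per marker list, and the 3 nearest patterns per member; 2 genes that this rule names are not reported here. The labels describe separate rats and pools. The number of arrays limits the precision. Promoter sequences are RefSeq's, and both members matched.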

Additional observations from a re-analysis of the deposited data

How the results depend on the processing

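Hk3 kept its direction and its call under all 19 alternatives, with leave-one-out values from 4.88 to 5.56. Hk2 was reversed to 0.60 with quantile normalization. With no scaling between arrays it read 0.74, but kept its -0.22 relative to the median of all probes. It was called at -0.94 within slide 1 and ranged from -0.68 to 0.030 with 1 array left out, the last (reversed) without adult replicate 1. The cause was not tested. The authors' values and the filter of all 6 arrays well above background gave no value for Hk2, and Hk1 and Gckr gave none anywhere. Of 210 tested genes on the lists, 148 were called, with 89 to 180 when 1 array was left out, the lowest without P10 replicate 3 and the highest without adult replicate 1, which each leave a stage with 1 counted sample and the spread of the other stage alone. Of 432 other counts under the alternatives, 364 were within 1.5 times the main count. Over all probes, 1576 were higher and 2542 lower without P10 replicate 3, 2126 and 2722 with normexp, and 5307 and 7470 with all 6 arrays as separate samples. Arrays of 1 number did not deviate together (r of -0.21, 0.08 and -0.24), so no pairing by number was seen. With 3 arrays per stage, these values cannot show that there was none. A fit with the replicate block gave 5.13 for Hk3, -0.26 for Hk2 and 164 called list genes. No scaling and raising of dim signals were chosen after seeing the data. Each stage rests on 2 counted replicates and 1 probe per gene, slide and adult array 1 cannot be told apart, and the Hk2 signal lay close to background.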

Other observations

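The genes beside Hk3 and Hk2 in RefSeq order were also tested. Next to Hk3, Rab24 changed by -0.32 and Fgfr4 by -0.19, neither called, while Uimc1 was higher by 0.52 (limma adjusted p = 0.0437), Sncb by 1.15 (0.0291) and Faf2 by 0.76 (0.0153), and Rnf44 changed by 0.53, not called. The largest change among these 6 neighbours was thus 1.15, beside 4.95 for Hk3. Next to Hk2, Tacr1, the substance P receptor, changed by -4.05 (limma adjusted p = 0.00132), whereas Eva1a was higher by 1.56 (0.00924) and Sema4f by 1.92 (0.00415). Pole4, Dok1 and Loxl3 changed by -0.42, -0.15 and -0.83, none called. In hepatocyte markers, 5 of 11 were higher and 4 lower. Of 6 erythroid markers, 1 was higher and 2 lower, and of 6 adipocyte markers, 3 were higher and 2 lower. Stromal markers split 2 higher and 2 lower of 6. Of 5 endothelial markers, 0 were called in either direction.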
